A study of Mus musculus with 18 samples.

Results

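Expression of the VEGF family was followed in mouse epidermal cells with and without Zfp36, the gene of the mRNA-decay factor tristetraprolin (TTP). The family was taken as the 8 genes Vegfa, Vegfb, Vegfc, Pgf, Flt1, Kdr, Nrp1 and Nrp2, found by symbol among the 52636 genes of the count table, and all 8 were present. Zfp36 fl/fl mice carry loxP-flanked Zfp36 alleles on a C57BL/6 background, and Zfp36 ΔK14 mice (ΔEP in the study) are their littermates in which Cre is driven by the keratin 14 promoter, active in basal keratinocytes and hair follicle epithelium. Cells came from mock skin, from skin painted with the mutagen DMBA and then the promoter TPA but lying beside the tumors (called treated), and from papillomas of the same treatment (called tumor). Each of the 6 groups had 3 columns, but those of mock ΔK14 replicates 2 and 3 were identical for every gene and were counted as 1 library, which left 17. No label ties a library to an animal, so p-values measure the spread between libraries, which may be partly technical. The labels give no age, name whole skin as the source and call the treated cells tumoral, whereas the protocols describe EpCAM+ CD45- CD140a- CD31- cells sorted from mock skin, adjacent skin and papillomas, a gate set against leukocytes, fibroblasts and endothelium.

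VEGF ligands are secreted dimers that keratinocytes and other epithelial cells release and that act on nearby blood vessels. VEGFA, VEGFB and PlGF (the product of Pgf) bind the tyrosine kinase receptor VEGFR1 (Flt1), VEGFA also binds VEGFR2 (Kdr), the main signalling receptor of endothelium, and VEGFC acts mainly on lymphatic vessels through VEGFR3 (Flt4). The neuropilins Nrp1 and Nrp2 are co-receptors that bind VEGFs and class 3 semaphorins. In skin, keratinocyte VEGFA is known to rise in wounds, and its mRNA is among those with AU-rich elements, the 3′ UTR sequences that TTP binds.

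The sequences printed here are shown because TTP recognises the heptamer TATTTAT, with U for T in the RNA. In the longest annotated 3′ UTR of each gene (GENCODE M21, GRCm38), this heptamer was found on the transcribed strand 3 times in Vegfa, 2 times in Pgf, 1 time in Flt1 and 1 time in Kdr. Vegfb, Vegfc, Nrp1 and Nrp2 had none in that window, although over the annotated isoforms the number reached 1 in Nrp2 and went down to 0 in Vegfa. Among 20939 genes with a 3′ UTR, 27.57% held the heptamer, 65.21% the overlapping pentamer ATTTA and 7.66% the longer TTATTTATT. Among the 10208 of at least 1000 bases, the heptamer was in 45.4%. Each line gives 25 bases, 5′ to 3′, with the heptamer in capitals.
Vegfa, chr17:46017597-46017621, minus strand: aatttcaacTATTTATgagatgtat
Vegfa, chr17:46017168-46017192, minus strand: gttatcattTATTTATtggtgctac
Vegfa, chr17:46017065-46017089, minus strand: cgtagtacaTATTTATttttaaaca
Pgf, chr12:85167339-85167363, minus strand: cagctcacgTATTTATtaccgtcac
Pgf, chr12:85167289-85167313, minus strand: cctaccctcTATTTATtagccgact
Flt1, chr5:147638583-147638607, minus strand: tataatgctTATTTATttgaaactt
Kdr, chr5:75933166-75933190, minus strand: tggcacatcTATTTATagtctgtta

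The second Vegfa line and the Flt1 line also hold TTATTTATT, which was in no other member. The Flt1 site lies in the 3′ UTR of a transcript (chr5:147635159-147725988) that ends inside the gene (chr5:147561604-147726011). The counts are per gene and do not separate the transcripts. The Pgf sites start at bases 48 and 98 of a 3′ UTR of 776 bases, and those of Vegfa at bases 1237, 1666 and 1769 of 1865, counted from the first base after the stop codon to the first base printed. A match describes the letters only. Vegfa (chr17:46016993-46032369), Vegfb (chr19:6982473-6987651), Vegfc (chr8:54077606-54187096), Pgf (chr12:85166635-85177790) and Kdr (chr5:75932827-75978458) overlap no other annotated gene, and neither does Flt1. Nrp1 (chr8:128358604-128503363) holds the microRNA Mir1903, and Nrp2 (chr1:62703285-62818695) is crossed by 2 noncoding genes whose exons share 0 bases with its own.

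Zfp36, the deleted gene, followed the labels. It ran from 152 to 713 CPM (counts relative to the TMM-scaled size of the library) in the 9 fl/fl libraries and from 10.03 to 38.4 CPM in the 8 ΔK14 libraries, without overlap. Its log2 fold change in ΔK14 was -4.13 ± 0.86 (SE) in mock cells (edgeR adjusted p = 1.0), -3.99 ± 0.35 in treated cells (adjusted p = 0.0390) and -4.10 ± 0.30 in tumor cells (adjusted p = 0.00881). The mock difference had a DESeq2 adjusted p of 0.000415. The treated call was lost without fl/fl replicate 1 or 2 or ΔK14 replicate 2 (adjusted p 0.265, 0.135 and 0.273), and the tumor call without fl/fl replicate 3 or ΔK14 replicate 2 or 3 (0.0574, 0.210 and 0.0756). Total counts ran from 2808550, in fl/fl tumor replicate 1, to 9617985. Mock replicate 1 of both genotypes stood apart: the summed CPM of 15 hair follicle genes was 2690 and 2737 there and 764 to 850 in the other mock libraries. Keratinocyte genes were abundant in every library, with the sum of Krt5, Krt14, Epcam and 5 others between 5686 and 34791 CPM. In mock cells this sum was 5686 and 5987 CPM in replicate 1 of fl/fl and ΔK14, and 23232 to 28186 CPM in the other libraries. In tumor cells it was 34791, 11226.5 and 12605 CPM in fl/fl and 28514 to 29911 CPM in ΔK14. Markers of the cell types gated against were present: 8 fibroblast genes summed to 237 to 2129 CPM over all libraries, with 237 to 772 CPM in fl/fl and 248 to 675 CPM in ΔK14 tumor cells, where 3 of the 8 had an unadjusted p under 0.05 and 0 were called between the genotypes by edgeR. The median log2 fold change of the 8 in ΔK14 against fl/fl tumor cells was 0.65, beside -0.02 over all genes tested. Markers of endothelium were lower. The sum of 16 of them ran from 14.7 to 48.0 CPM over all libraries, from 28.5 to 46.4 CPM in fl/fl tumor cells and from 29.4 to 45.3 CPM in ΔK14 tumor cells, and most of it came from Pecam1, with 270 and 352 counts over the 3 tumor libraries of each genotype. Cdh5 (VE-cadherin) had 4 and 25 counts there, Tie1 8 and 33, Egfl7 35 and 97, and Plvap 7 and 3, while Sox17 and Adgrl4 were at 0 in tumors of both genotypes. In sorted bulk RNA, fewer cells of a type and less RNA per cell cannot be told apart.

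**Figure D1:**
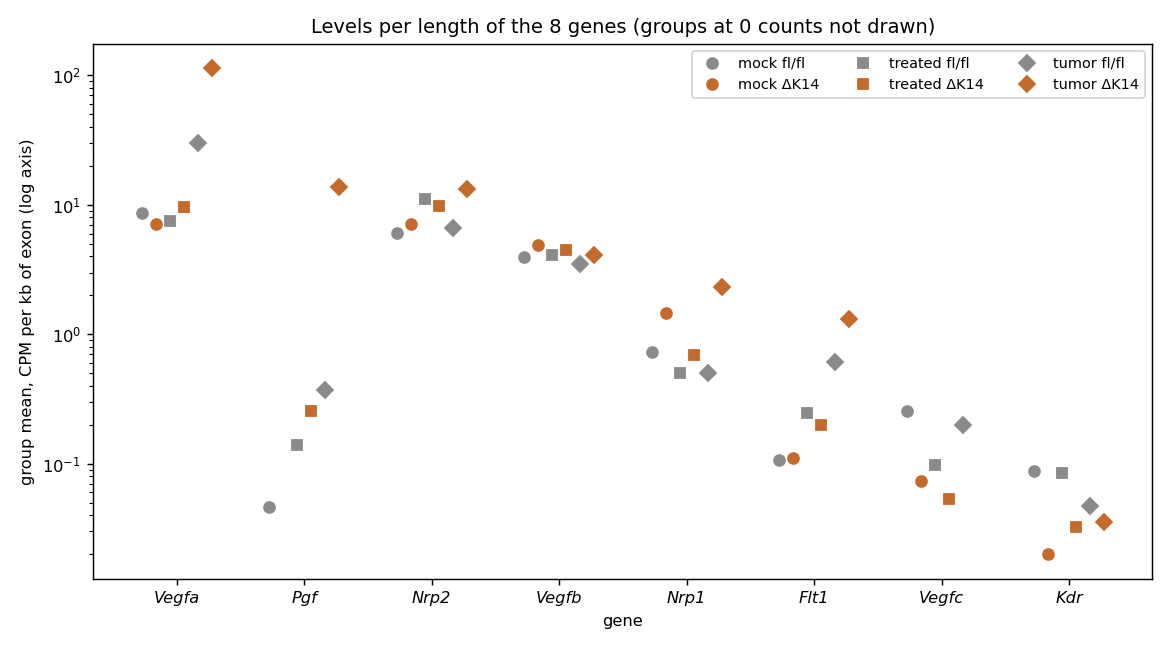
Group means of the 8 genes in CPM per kilobase of summed exon length, on a log axis, for fl/fl (grey) and ΔK14 (orange) cells of mock skin (circles), treated skin (squares) and tumors (diamonds). Vegfa lies highest in tumors of both genotypes, Pgf lies at 13.7 CPM per kb in ΔK14 tumors and at most at 0.372 in the other groups, and Vegfc and Kdr reach at most 0.257; 2 group means at 0 counts are not drawn.

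Per length of summed exons, the order of the 8 genes was led by Vegfa in ΔK14 tumor cells, at 113 ± 27.5 CPM per kb (SD, n = 3). Pgf at 13.7 ± 6.37 and Nrp2 at 13.2 ± 2.92 CPM per kb came next and did not differ beyond their spread. Below them stood Vegfb at 4.11 ± 1.76, Nrp1 at 2.30 ± 0.47 and Flt1 at 1.32 ± 0.67 CPM per kb, each overlapping the next within 1 SD. Kdr was at 0.0356 ± 0.0095 CPM per kb and Vegfc was at 0 counts in every ΔK14 tumor library. In fl/fl tumor cells the order was Vegfa at 29.9 ± 10.7 CPM per kb, Nrp2 at 6.64 ± 1.27, Vegfb at 3.51 ± 1.55, Flt1 at 0.611 ± 0.017, Nrp1 at 0.498 ± 0.204 and Pgf at 0.372 ± 0.131, and the last 3 lay within 1 SD of their neighbours. Vegfc at 0.198 ± 0.204 and Kdr at 0.0474 ± 0.0555 CPM per kb closed it. In the 4 groups of mock and treated cells, Vegfa lay between 7.16 and 9.63 CPM per kb and Nrp2 between 6.04 and 11.03, and neither led in all 4.

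The first question was whether loss of Zfp36 changed the family within each stage. In tumor cells, 1 of the 6 members that passed the low-count filter was called (a change of more than 2-fold with an edgeR adjusted p below 0.05), and it was higher in ΔK14: Pgf. Over all 14067 genes tested, 0.0213% were called higher (3 genes) and 0.00711% lower (1 gene, Zfp36). At an unadjusted p under 0.05 stood 5 of the 6 members, against 1975 of all genes. In 4 members (Vegfa, Pgf, Nrp1 and Nrp2) every ΔK14 tumor library lay above every fl/fl one, against 13.6% of all genes tested. The median log2 fold change of the 6 was 1.39, beside -0.02 over all genes tested. Pgf, included in each of these figures, passed the low-count filter only in comparisons that hold the ΔK14 tumor libraries, where it was high. Some sums of genes listed as markers of other cell types stood higher in ΔK14 than in fl/fl tumor libraries. The 6 lymphatic endothelial entries (Prox1, Lyve1, Pdpn, Flt4 and 2 of Ccl21a, the last at 0) summed to 9.15 to 59.0 CPM in fl/fl and 75.1 to 123 CPM in ΔK14. This sum rests on few genes: in fl/fl replicate 1, at 59.0 CPM, only 2 of the entries had any count. Of these 5 genes, 2 could be tested and 0 were called, and Flt4 had 2 counts over the tumors of each genotype. Leukocyte genes summed to 21.5 to 104 and 104 to 125 CPM. Of these, 0 of 5 tested were called, and their median log2 fold change was -0.04. The 15 hair follicle genes went the other way, at 549, 718 and 861 CPM in fl/fl and 376, 457 and 456 CPM in ΔK14. The part of these sums in the members' levels was not tested, nor was that of the fibroblast genes and endothelial counts given above. Whether the sums came from cells of the named types was not tested either.

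Pgf, which encodes placental growth factor, had 3, 5 and 3 counts in the fl/fl tumor libraries (1.5, 0.761 and 0.980 CPM) and 94, 223 and 306 counts in the ΔK14 ones (21.0, 40.3 and 57.9 CPM). The groups did not overlap. The log2 fold change was 5.16 ± 0.51 (SE; 95% interval 4.0 to 6.33; edgeR adjusted p = 0.0287), at rank 1 of the 14067 genes by size and rank 3 by p. The ratio of summed counts was 43.1, with a counting interval of 23.9 to 86.7 that covers counting error only. With fl/fl replicate 2 or 3, or ΔK14 replicate 2 or 3, left out, the adjusted p was 0.241, 0.244, 0.235 and 0.0929, and the log2 fold change stayed between 4.83 and 5.17. Without fl/fl replicate 1 it was 0.000212, and without ΔK14 replicate 1 it was 0.0143.

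Vegfa, the main angiogenic ligand, was at 181, 97.9 and 106 CPM in fl/fl tumor cells and at 362, 501 and 595 CPM in ΔK14 tumor cells. The groups did not overlap. The log2 fold change was 1.79 ± 0.29 (95% interval 1.12 to 2.47), with an unadjusted p of 0.000253 and an edgeR adjusted p of 0.144, so it was not called. It was past the threshold when fl/fl tumor replicate 1, the shallowest library, was left out (2.15, adjusted p = 0.000264, with 2613 calls over all genes in place of 4), and by the DESeq2 Wald test (1.16e-05) and edgeR's exact test (7.25e-05).

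The co-receptor genes stood in the same direction. Nrp1 was at 7.0, 3.04 and 4.57 CPM in fl/fl tumor cells and at 18.7, 21.2 and 27.6 CPM in ΔK14 ones. Its log2 fold change was 2.15 ± 0.35 (95% interval 1.34 to 2.96, edgeR adjusted p = 0.144), and without fl/fl tumor replicate 1 it was 2.51 with an adjusted p of 0.000781. Nrp2 was at 77.0, 64.5 and 94.4 CPM against 116, 176 and 175 CPM, a log2 fold change of 0.85 ± 0.24 (95% interval 0.29 to 1.40, edgeR adjusted p = 0.232). The groups did not overlap for either gene, and neither was called.

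The tumor groups overlapped for Flt1 and Vegfb. Flt1 was at 8.50, 8.07 and 8.17 CPM in fl/fl and at 7.80, 20.6 and 25.2 CPM in ΔK14 tumor cells, so that ΔK14 replicate 1 lay below all fl/fl libraries. Its log2 fold change was 0.98 ± 0.42 (95% interval 0.02 to 1.93, edgeR adjusted p = 0.349). Vegfb, a ligand of VEGFR1, overlapped at 4.0, 4.41 and 8.49 against 9.81, 5.43 and 4.54 CPM, with a log2 fold change of 0.08 (95% interval -0.97 to 1.14). Kdr had 0, 2 and 3 counts against 1, 2 and 2, a ratio of summed counts of 0.760 with a counting interval of 0.175 to 3.30. Vegfc had 5 counts over the fl/fl tumor libraries and 0 over the ΔK14 ones, where 0 counts allow up to 0.196 CPM over the group. Neither could be tested.

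**Figure D2:**
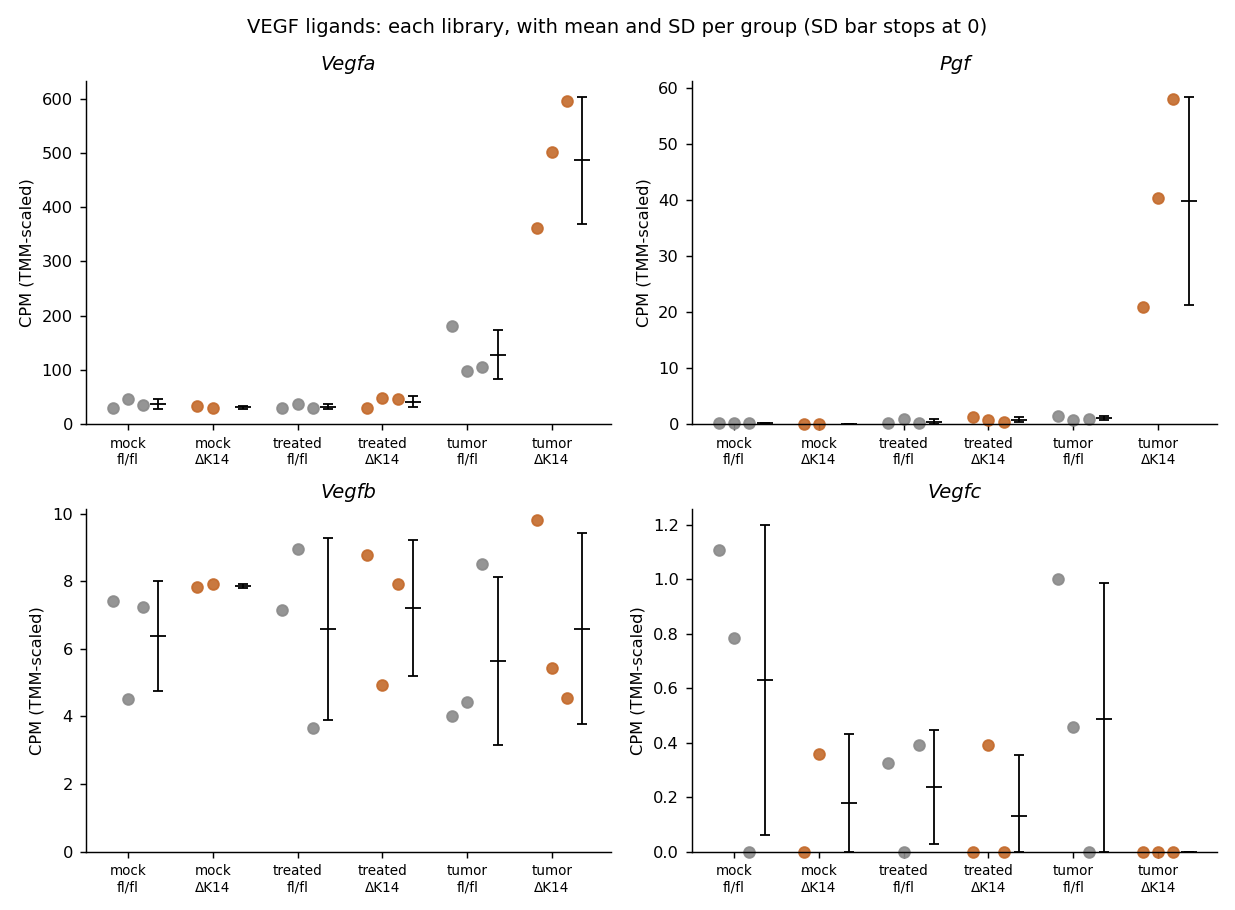
CPM of the 4 ligand genes in each library (points, grey for fl/fl and orange for ΔK14) by group, with the group mean and SD beside them. The 3 ΔK14 tumor libraries lie above all others for Vegfa (362 to 595 CPM) and Pgf (21.0 to 57.9 CPM), Vegfb stays between 3.65 and 9.81 CPM over all groups, and Vegfc stays at 10 counts or fewer.

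In mock cells, 0 of the 4 members tested were called (0 at an unadjusted p under 0.05, and 0 by DESeq2 and by edgeR's exact test), where 0% of 15920 genes were called (253 at an unadjusted p under 0.05, 3 called by DESeq2, 2 by the exact test). Vegfa was at 30.4, 47.0 and 34.4 CPM in fl/fl and at 32.6 and 28.7 CPM in ΔK14 mock cells. The groups overlapped, and the log2 fold change was -0.27 (95% interval -1.02 to 0.47). Nrp1 and Nrp2 split by replicate rather than by genotype. Nrp2 was at 170 and 155 CPM in replicate 1 of fl/fl and ΔK14 and at 28.6, 16.3 and 14.4 CPM in the other 3 libraries, and Nrp1 at 16.7 and 25.1 against 3.33, 1.35 and 3.59 CPM. The hair follicle sums given above move with these levels, and their part in them was not tested. The interval of the Nrp2 difference, -3.16 to 3.53, covers large changes either way, and its sign turned when mock fl/fl replicate 2 or 3 or ΔK14 replicate 1 was left out (-0.13, -0.23 and -2.36). Vegfb was at 7.41, 4.50 and 7.23 CPM in fl/fl and at 7.82 and 7.90 CPM in ΔK14 cells. These groups did not overlap, but they hold few libraries and the interval of the difference covered 0 (0.29, 95% interval -0.71 to 1.30). Pgf had 1 count in each fl/fl mock library and 0 in both ΔK14 ones, at or under the floor of 3 counts over a group.

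In treated cells, 0 of the 5 members tested were called (0 at an unadjusted p under 0.05, 0 by DESeq2, 0 by the exact test), beside 0.00616% of 16232 genes (1 gene, Zfp36; 901 at an unadjusted p under 0.05, 36 called by DESeq2, 44 by the exact test). Vegfa was at 29.2, 36.9 and 29.7 CPM in fl/fl and 29.9, 47.2 and 46.7 CPM in ΔK14 cells, which overlapped, with a log2 fold change of 0.35 (95% interval -0.14 to 0.84). Flt1 (-0.33, interval -1.35 to 0.70), Nrp1 (0.38, interval -0.65 to 1.42), Nrp2 (-0.20, interval -0.74 to 0.34) and Vegfb (0.12, interval -0.74 to 0.98) overlapped as well. Pgf had 2, 4 and 1 counts in fl/fl and 7, 5 and 2 in ΔK14 treated cells, a ratio of 2.24 with a counting interval of 0.845 to 6.55, which was not detectable as a difference at this depth. Kdr had 18 counts over the fl/fl and 5 over the ΔK14 treated libraries, a ratio of 0.311 with a counting interval of 0.0902 to 0.868, and was not tested.

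**Figure D3:**
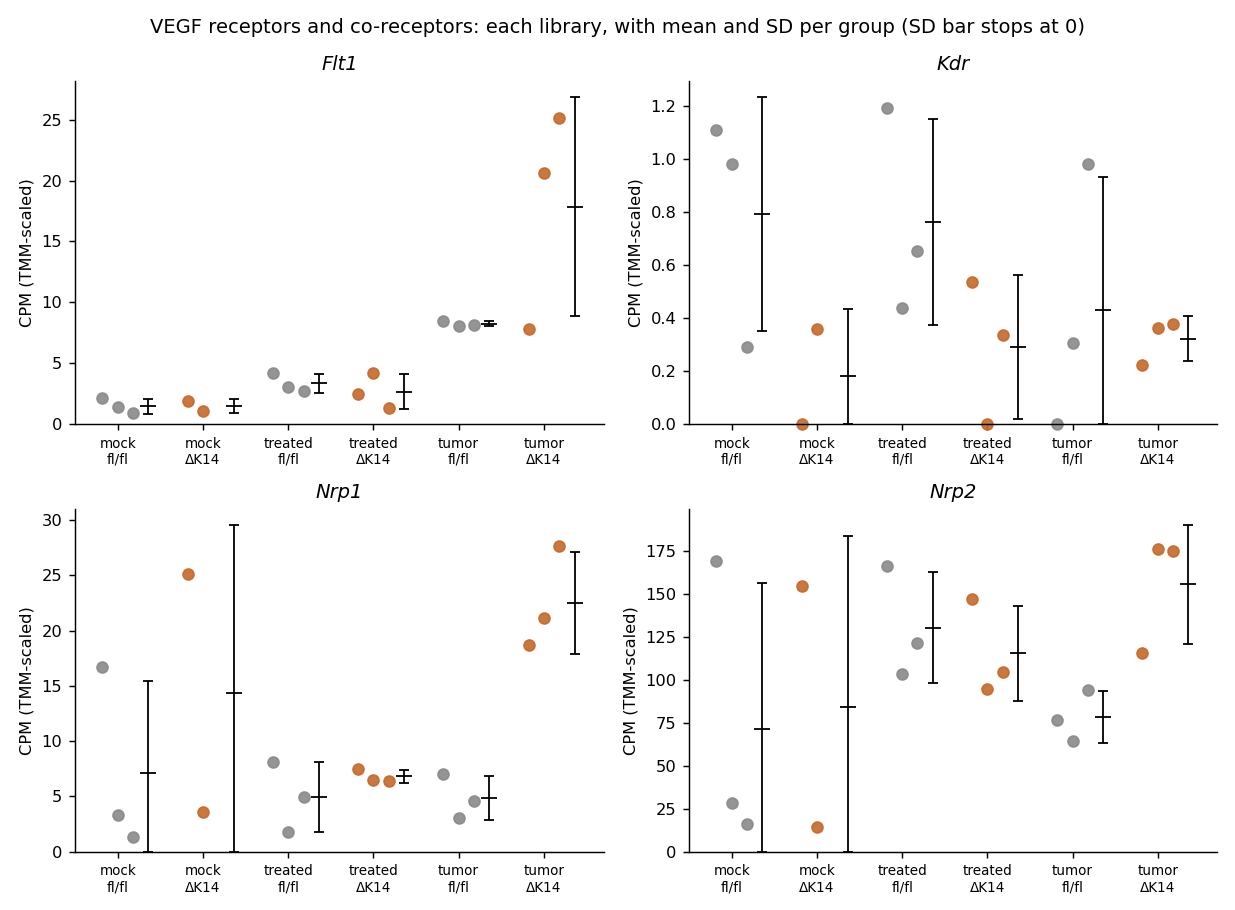
CPM of the receptor genes Flt1 and Kdr and of the co-receptor genes Nrp1 and Nrp2 in each library by group, drawn as for the ligands. Flt1 is highest in tumors, Kdr reaches 1.19 CPM at most, and in mock cells 1 library of each genotype lies far above the rest for Nrp1 and Nrp2.

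Whether the genotype difference itself changed with stage was tested as an interaction. Between tumor and treated cells, 0 of 6 members were called, while 4 of 6 (Vegfa, Pgf, Nrp1 and Nrp2) had an unadjusted p under 0.05 and DESeq2 called 2, Vegfa and Pgf. In the interactions that hold tumor cells, Pgf passed the low-count filter only through the ΔK14 tumor libraries, where it was high. Among 17017 genes 0.0118% were called (2 genes, 2243 at an unadjusted p under 0.05, 244 called by DESeq2). The genotype difference in log2 was larger in tumor cells by 4.19 ± 1.08 for Pgf, 1.84 ± 0.62 for Nrp1, 1.5 ± 0.38 for Vegfa and 1.11 ± 0.36 for Nrp2, with edgeR adjusted p of 0.207, 0.265, 0.207 and 0.256. Without fl/fl tumor replicate 1, Pgf and Vegfa passed (adjusted p = 0.0394 and 0.00662), as did 1429 of all genes. Between tumor and mock cells 0 of 6 were called (2 at an unadjusted p under 0.05, 1 by DESeq2, Vegfa), beside 0% of 17388 genes (1423 at an unadjusted p under 0.05, 31 called by DESeq2). Vegfa differed there by 2.13 ± 0.46 (edgeR adjusted p = 0.535). Between treated and mock cells 0 of 5 were called (0 at an unadjusted p under 0.05, 0 by DESeq2), beside 0% of 17694 genes (257 at an unadjusted p under 0.05, 0 called by DESeq2).

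**Figure D4:**
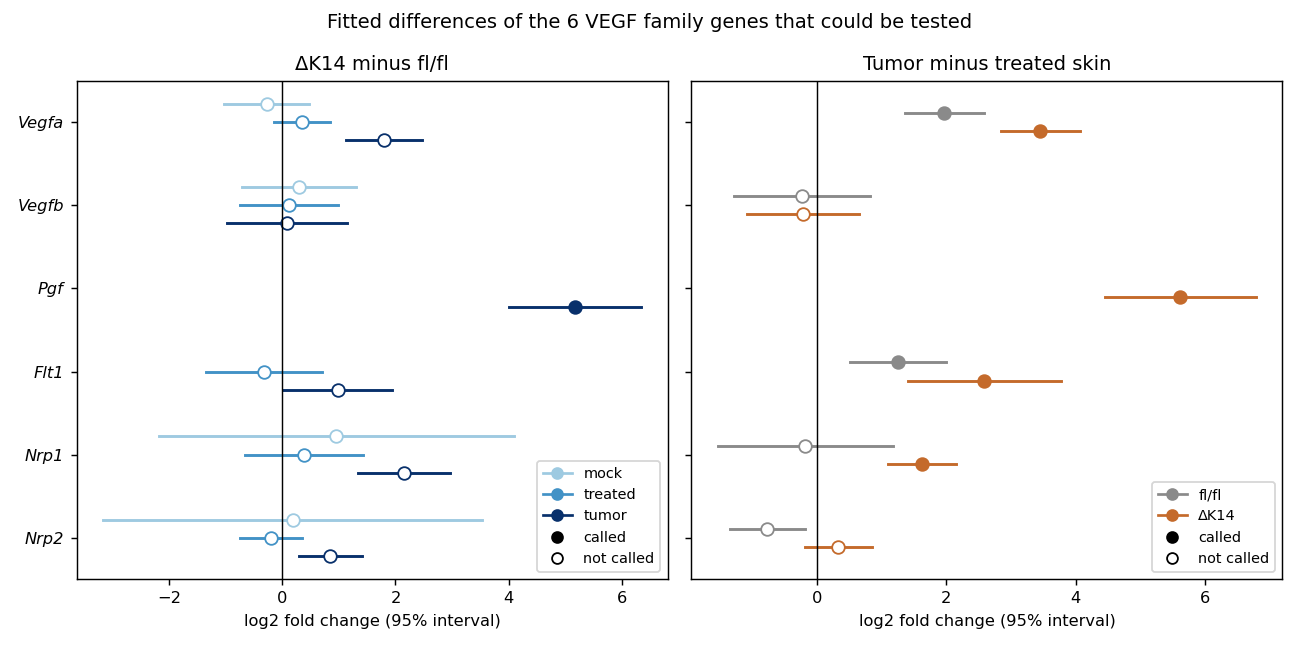
Fitted log2 fold changes with 95% intervals for the 6 members that could be tested in at least 1 of these comparisons, ΔK14 minus fl/fl at each stage (left) and tumor minus treated skin in each genotype (right). Filled points were called and open points were not. Pgf at 5.16 is the single filled point on the left, and on the right Vegfa and Flt1 are filled in both genotypes and Pgf and Nrp1 in ΔK14.

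The second question was how the family changed from skin to papilloma. The comparisons with mock and with treated cells share the tumor libraries of each genotype, and the genotype comparisons use the same libraries again. In ΔK14, 4 of 6 members tested were called higher in tumor than in treated cells and 0 lower, where 10.5% of 15289 genes were called higher and 15.5% lower. Pgf, included in both numbers, passed the low-count filter only through the tumor libraries, where it was high. Vegfa rose from 29.9, 47.2 and 46.7 to 362, 501 and 595 CPM (log2 fold change 3.45 ± 0.27, edgeR adjusted p = 0.000179). Pgf rose from 7, 5 and 2 counts to 94, 223 and 306 (log2 fold change 5.61 ± 0.51, edgeR adjusted p = 0.000313). The tumor libraries lay above all treated ones for both ligands.

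On the receptor side, Flt1 rose from 2.5, 4.16 and 1.35 to 7.80, 20.6 and 25.2 CPM (log2 fold change 2.59 ± 0.52, edgeR adjusted p = 0.00602). Nrp1 rose from 7.51, 6.51 and 6.40 to 18.7, 21.2 and 27.6 CPM (1.63 ± 0.23, edgeR adjusted p = 0.00169). All 4 calls held whichever library was left out, and Nrp1 was not called in a single fit of all libraries (adjusted p = 0.111). Nrp2 overlapped at 147, 94.8 and 105 against 116, 176 and 175 CPM (0.34, 95% interval -0.18 to 0.85). Vegfb (-0.21, interval -1.07 to 0.65) overlapped too, and Kdr had 5 counts in each group. Of 4 tested endothelial markers 1 was called higher, while the sum of all 16 was 14.7 to 27.5 CPM in treated and 29.4 to 45.3 CPM in tumor cells of ΔK14, and the part of these sums in the Flt1 and neuropilin values was not tested. Nor was that of the hair follicle genes, of which 13 of 15 were called lower in ΔK14 tumor cells (sums of 376 to 457 against 1018 to 1728 CPM).

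In fl/fl, 2 of 5 members tested were called higher in tumor than in treated cells and 0 lower, where 7.5% of 15362 genes were called higher and 10.5% lower. Vegfa rose from 29.2, 36.9 and 29.7 to 181, 97.9 and 106 CPM (1.97 ± 0.27, edgeR adjusted p = 0.00328), and did so whichever library was left out. Flt1 rose from 4.22, 3.06 and 2.74 to 8.50, 8.07 and 8.17 CPM (1.25 ± 0.32, edgeR adjusted p = 0.0272). The Flt1 call was lost without any single treated library or without tumor replicate 2 or 3 (adjusted p 0.0549 to 0.101). Nrp2 was lower in every tumor library, at 77.0, 64.5 and 94.4 against 167, 104 and 122 CPM, but was not called (-0.76 ± 0.25, edgeR adjusted p = 0.0592). The hair follicle sum was 549 to 861 CPM in tumor and 1672 to 2242 CPM in treated fl/fl cells, with 12 of 15 genes called lower and 1 higher, and its part in the Nrp2 values was not tested. Nrp1 (-0.17, interval -1.52 to 1.17) and Vegfb (-0.23, interval -1.28 to 0.83) overlapped. Pgf had 7 counts over the treated and 11 over the tumor libraries, a ratio of 2.90 with a counting interval of 1.03 to 8.83, and was not tested.

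Against mock cells, 3 of 6 members tested were called higher in ΔK14 tumors and 0 lower, where 7.05% of 15027 genes were called higher and 7.22% lower. Here too Pgf, included in both numbers, passed the low-count filter only through the tumor libraries. Vegfa was at 32.6 and 28.7 CPM in mock cells (log2 fold change 3.89 ± 0.34, edgeR adjusted p = 0.00484). Flt1 was at 1.89 and 1.08 CPM there (3.44 ± 0.67, edgeR adjusted p = 0.0247), and its call was lost without tumor replicate 2 or 3 (adjusted p = 0.0955 and 0.0855). Pgf was at 0 counts in both mock libraries and was called higher in tumors (edgeR adjusted p = 0.00929, and 0.0619 without tumor replicate 2). Taken against a floor of 3 counts over the mock group, its ratio was 88.1. The counting interval, which covers counting error only, began at 71.4. Nrp1 and Nrp2 were not called (0.53 ± 0.68 and 0.77 ± 0.82), but without mock ΔK14 replicate 1 both were, at 2.60 (adjusted p = 0.00395) and 3.40 (adjusted p = 0.000510), with 4573 calls over all genes in place of 2144.

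In fl/fl, 2 of 5 members tested were called higher in tumor than in mock cells and 0 lower, where 2.22% of 15394 genes were called higher and 1.88% lower. Vegfa was at 30.4, 47.0 and 34.4 CPM in mock cells (1.75 ± 0.33, edgeR adjusted p = 0.0342), and its call was lost without mock replicate 2 or 3 or tumor replicate 2 or 3 (adjusted p 0.0960 to 0.135). Flt1 was at 2.10, 1.37 and 0.867 CPM there (2.46 ± 0.47, edgeR adjusted p = 0.0367), and its call was held only without mock replicate 1 (adjusted p = 0.00907; 0.0608 to 0.165 without any other library). The groups did not overlap for either gene. Nrp2 gave 0.10 ± 0.79, and without mock replicate 1 it was called at 1.82 (adjusted p = 0.0121), with 3277 calls over all genes in place of 632. Pgf had 3 counts over the mock and 11 over the tumor libraries, a ratio of 7.73 with a counting interval of 2.04 to 43.2.

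Between treated and mock skin 0 of 5 members tested were called in either genotype (1 at an unadjusted p under 0.05 in fl/fl and 0 in ΔK14, and 0 by DESeq2 and by the exact test in both). All genes gave 0% of 16601 in fl/fl (914 at an unadjusted p under 0.05, 118 called by DESeq2, 105 by the exact test) and 0% of 15891 in ΔK14 (763, 71 and 53). The member with an unadjusted p under 0.05 was Flt1 in fl/fl, at 2.10, 1.37 and 0.867 CPM in mock and 4.22, 3.06 and 2.74 CPM in treated cells, without overlap (1.22 ± 0.44, edgeR adjusted p = 0.849). Without mock fl/fl replicate 1, Flt1 (1.68, adjusted p = 0.0337) and Nrp2 (2.60, adjusted p = 0.00238) were both called, among 2587 calls over all genes.

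The other genes of the pathway were taken from lists of related function, and their counts in tumor against treated cells stand beside 10.5% of all genes called higher and 15.5% lower in ΔK14, and 7.5% higher and 10.5% lower in fl/fl. Of 14 further ligand, receptor, semaphorin and plexin genes, Flt4 (VEGFR3) had 10 counts or fewer in every library. Vegfd, a lymphatic ligand, was at 7.0, 2.74 and 3.92 CPM in fl/fl and at 12.3, 9.77 and 11.4 CPM in ΔK14 tumor cells, without overlap (log2 fold change 1.24 ± 0.39, edgeR adjusted p = 0.253). Vegfd also ranged from 1.77 to 28.5 CPM within the fl/fl mock libraries, lowest in replicate 1. In tumor against treated cells, 4 of 10 tested were called lower in each genotype. Sema3d, a secreted semaphorin, fell by 4.04 ± 0.95 on the log2 scale in fl/fl (edgeR adjusted p = 0.0204), and the receptor gene Plxna2 fell by 1.89 ± 0.28 in ΔK14 (edgeR adjusted p = 0.00198). Against mock cells, Sema3d was called lower in tumors of both genotypes (-6.17 ± 1.09 in fl/fl and -6.47 ± 1.12 in ΔK14, edgeR adjusted p = 0.0288 and 0.0187). Its mock libraries spread widely, at 225 ± 171 CPM (SD) in fl/fl and 141 ± 165 CPM in ΔK14. Tumor cells had 3.50 ± 2.46 and 1.62 ± 1.57 CPM, so the size of the fall is poorly fixed. Called higher were 2 of 10 in ΔK14, among them Sema3f, a ligand of NRP2 (1.16 ± 0.23, edgeR adjusted p = 0.00555).

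**Figure D5:**
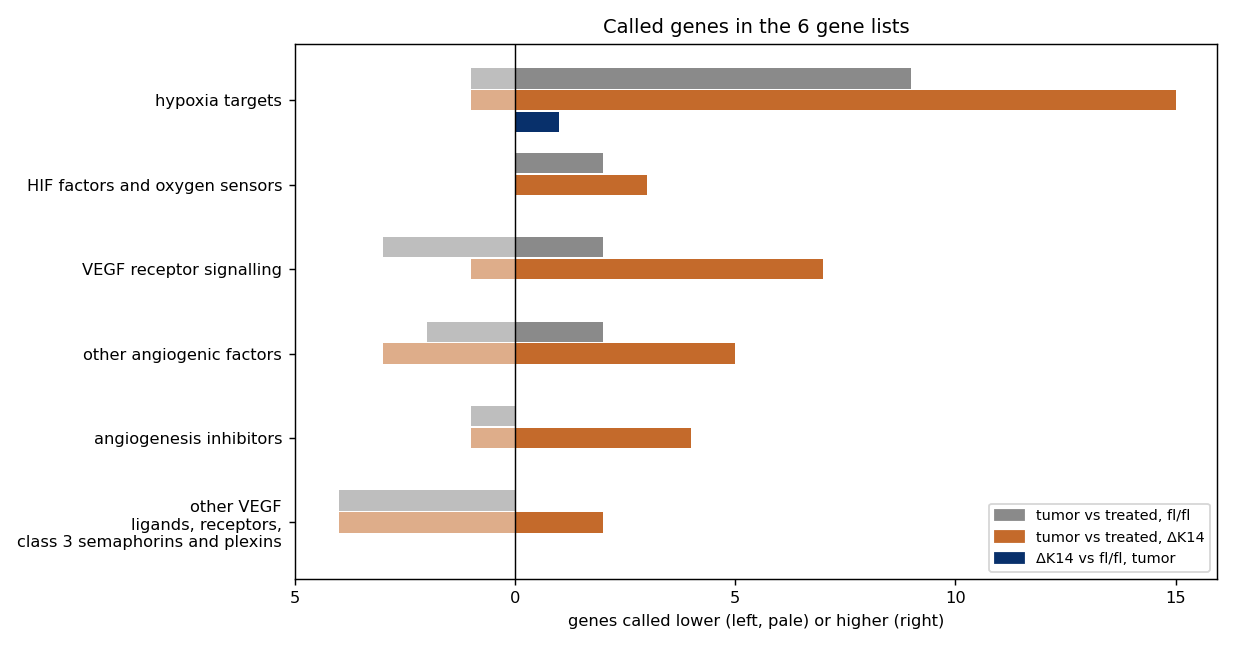
Number of genes called higher (to the right) or lower (to the left, pale) in each of 6 gene lists, for tumor against treated cells of each genotype and for ΔK14 against fl/fl tumor cells. The longest bar is that of the hypoxia targets in ΔK14 tumors (15 of 18 higher), and a single gene of all lists, Ero1l, was called between the tumor genotypes.

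Hypoxia targets, genes induced by HIF in low oxygen as Vegfa itself is, were called higher most often. In tumor against treated cells, 15 of 18 were called higher and 1 lower in ΔK14, with a median log2 fold change of 2.37 beside -0.03 over all genes tested. In fl/fl they were 9 higher and 1 lower, with a median of 1.13 beside -0.02. In ΔK14, Pfkfb3, a glycolytic regulator, rose by 3.62 ± 0.22 (edgeR adjusted p = 0.000166). Between the tumor genotypes 1 of 18 was called, Ero1l, an oxidoreductase of the endoplasmic reticulum, higher in ΔK14 (1.86 ± 0.20, edgeR adjusted p = 0.0415), and the median of the 18 was 1.09 beside -0.02. Over all 14067 genes tested there, 0.0213% were called higher. At an unadjusted edgeR p under 0.05 stood 12 of the 18, against 1975 of all genes. Among 8 HIF factors and oxygen sensors, 3 were called higher in ΔK14 and 2 in fl/fl tumor against treated cells. Hif1a, which encodes the oxygen-regulated subunit, rose by 2.15 ± 0.41 in ΔK14 (edgeR adjusted p = 0.00508) and by 2.56 ± 0.24 in fl/fl (edgeR adjusted p = 0.00121).

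Of 42 genes of VEGF receptor signalling, 37 were tested in tumor against treated cells, with 7 called higher and 1 lower in ΔK14 and 2 higher and 3 lower in fl/fl, the latter no more often than among all genes. Ptgs2, the inducible cyclooxygenase, rose by 5.81 ± 0.43 in ΔK14 (edgeR adjusted p = 0.000173), and the kinase gene Map2k1 rose in both, by 1.53 ± 0.20 in ΔK14 and 1.59 ± 0.25 in fl/fl (edgeR adjusted p = 0.00109 and 0.00520). Other angiogenic factors gave 5 higher and 3 lower of 14 in ΔK14 and 2 higher and 2 lower of 15 in fl/fl. The EGF receptor ligand genes Tgfa and Hbegf rose in both genotypes, Tgfa by 3.49 ± 0.44 in ΔK14 and 3.45 ± 0.36 in fl/fl (edgeR adjusted p = 0.00101 and 0.00176), while Cxcl12 fell by 3.85 ± 0.48 in fl/fl (edgeR adjusted p = 0.00264). Against mock cells, Cxcl12 was also called lower in ΔK14 tumors (-3.10 ± 0.39, edgeR adjusted p = 0.00951). Of 5 tested angiogenesis inhibitors, 4 were called higher and 1 lower in ΔK14 and 1 lower in fl/fl. Timp3, a matrix-bound inhibitor that blocks VEGFR2, fell by 3.84 ± 0.46 in ΔK14 and fell by 2.06 ± 0.48 in fl/fl (edgeR adjusted p = 0.000891 and 0.0203). Col18a1, the source of endostatin, rose by 2.43 ± 0.30 in ΔK14 (edgeR adjusted p = 0.000968).

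Across the 17 libraries, the genes whose log2 CPM was most like that of Vegfa among 18251 others were Tpm4 (Pearson r = 0.986), Itgb1 (0.983), Ero1l (0.982), Cxcl3 (0.981) and Fbln2 (0.979). Those most like Pgf were Gpr132 (0.955), Sprr2e (0.947), 9330136K24Rik (0.940), Msantd3 (0.939) and Prl2c2 (0.939). Among the members, Vegfa followed Pgf (0.930) and Flt1 (0.876), Nrp1 followed Nrp2 (0.699), and Vegfb was at -0.24 with Vegfa. All points share their libraries, depth and the group structure, so these values describe the pattern only.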

How the data were processed

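The deposited table holds raw counts per gene for 18 columns, made by the authors from sequenced libraries of sorted epidermal cells (RNeasy Plus Micro RNA, NuGEN Ovation SoLo, Illumina HiSeq). The submitters' processing notes name Trimmomatic 0.36, STAR 2.5.3, HTSeq 0.9.1, DESeq2 and mm10, without roles, and the table's title names featureCounts. The annotation, the strand setting and any removal of duplicate reads are not given in the sources used here. Groups came from the labels. Mock ΔK14 replicates 2 and 3 differed in 0 genes and entered once, leaving 17 libraries with total counts of 2808550 to 9617985.

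Each comparison was fitted over all genes of its own groups with edgeR 4.0.16 in R 4.3.3 by a two-sided quasi-likelihood F test with filterByExpr defaults and TMM scaling, and p-values were adjusted by Benjamini-Hochberg across the genes tested. Called means an adjusted p under 0.05 and, outside interactions, a fold change over 2. Low counts are given as ratios with exact 95% intervals and a floor of 3 counts over a group, which cover counting error only. Levels are CPM on TMM-scaled totals, per kilobase of summed exons where genes are compared. AU-rich motifs were counted in GENCODE M21 3′ UTRs on GRCm38, where 52403 of 52636 gene IDs were found. The alternatives were DESeq2 1.42.0, edgeR's exact test, other filters and scaling, a single fit, a replicate block and leaving out each library. Scripts were tested on simulated data.

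Named genes were the 8 members, Zfp36 as the check of the labels, for Vegfa and Pgf the 5 genes with the highest correlation of log2 CPM (prior count 2), and from each pathway list up to 3 called genes with the smallest p in a comparison. The values of 1 gene that this rule picks are not reported here. Vegfd, Flt4 and the marker genes are named outside this rule. The members and the lists were chosen with earlier results of these data known.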

Additional observations from a re-analysis of the deposited data

How the results depend on the processing

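Of 929 alternative values for single members, 874 kept their direction, where called, and their side of the threshold, 27 passed it newly and 28 lost it. Between the tumor genotypes 1 member was called, against 3 by DESeq2, 3 by edgeR's exact test, 2 in a single fit of all libraries and 5 without a low-count filter. Calls over all genes rose as well, from 4 to 366, 328, 122 and 1393 in the same order. For the interaction of tumor and mock, 0 members became 1 by DESeq2 and 2 without a filter, while 0 calls over all genes became 31 and 188. For that of tumor and treated, 0 members became 2 and 4, while 2 calls over all genes became 244 and 1003. Of the 2 members called between tumor and treated fl/fl cells, 1 was left without a filter and 1 in the single fit. Over all genes, 2764 calls became 4316 and 2783 there. The cause was not tested.

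Same-numbered replicates were not taken as pairs: no comparison with 3 pairs had every correlation of deviations over 0.1, and where every one was (0.782 and 0.569 between the mock genotypes, 0.569 and 0.141 between treated and mock ΔK14) there were only 2 pairs. With a replicate block, the members called were 0 between the tumor genotypes (Pgf 5.15 and Zfp36 -4.12, both at an edgeR adjusted p of 0.0757), 0 between fl/fl tumor and mock cells and 1 between fl/fl tumor and treated cells. Over all genes the calls fell from 4 to 0, from 632 to 244 and from 2764 to 1831 in these comparisons. Between the mock genotypes, calls over all genes went from 0 to 112, Zfp36 among them (edgeR adjusted p = 9.33e-33).

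Leaving out 1 library at a time gave 0 to 3 members between the tumor genotypes, 0 to 2 for treated against mock fl/fl, 0 to 3 for tumor against mock fl/fl, 1 to 2 for tumor against treated fl/fl, 1 to 5 for tumor against mock ΔK14 and 0 to 2 for the interaction of tumor and treated. In the same order from treated against mock fl/fl onward, calls over all genes ran from 0 to 2587, 30 to 3277, 1106 to 4138, 101 to 4573 and 0 to 1429. Over all genes, the calls between the tumor genotypes ran from 0 to 2613, the latter without fl/fl tumor replicate 1, the shallowest library. That library also had a keratinocyte sum of 34791 CPM, against 11226.5 and 12605 CPM in fl/fl tumor replicates 2 and 3. The part of depth or of cell content in these calls was not tested. A term for mock replicate 1, chosen after seeing the data, called 0 members in the mock genotype comparison and in the interactions with mock. Mock ΔK14 rests on 2 libraries, and Vegfc and Kdr had too few counts for a test in any comparison.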
